A study of Drosophila melanogaster with 2 samples.

Results

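The nuclear transfer RNA (tRNA) genes of Drosophila melanogaster were examined for H3K27ac, the acetylated form of lysine 27 on histone H3 that marks promoters and enhancers in use. Members were all genes of the Release 6 (dm6) annotation with the biotype tRNA and a symbol beginning with tRNA, placed on the arms 2L, 2R, 3L, 3R, 4 and X. Of 17684 annotated genes on these arms, 290 met the rule. Another 22 genes of the biotype lie on the mitochondrial genome and were not counted as members. The arm 4 held 0 members, and the other arms held 98 (2R), 79 (3R), 48 (3L), 41 (2L) and 24 (X). The members fell into 186 isolated genes, more than 1 kb from any end of a protein-coding gene, and 104 genes nearer to such an end. A gene in the interior of a long protein-coding gene can be isolated by this rule.

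The mark was mapped by CUT&RUN: an antibody brings a nuclease to its target, and the fragments that the nuclease frees are sequenced. The tissue was the wing of male pupae of D2, a transgenic line whose transgene is not given in the sources used, at 67% of pupal development. There were 2 biological replicates of 35 to 45 pooled wings each and 1 group, so that members were compared with each other, with other genes and with the rest of the arms. The data were 1 list of peaks per replicate, which held 14461 peaks for replicate 1 and 26420 for replicate 2. The local background that the peak heights imply was 13.8 fragments for replicate 1 and 27.1 for replicate 2, and the lowest fold enrichment listed was 1.49 and 1.31. The lists give no level outside peaks. As a check of the tissue, both replicates placed a peak within 500 bp of either end of 8 among 11 wing marker genes. Of the rest, vg and bs had a peak in replicate 2 and not in replicate 1, and sd had none. Both replicates placed one at 3 among 19 markers of other tissues, namely trh (trachea), Lsp2 (fat body) and elav (neurons). Over all 13922 protein-coding genes the share was 39.3%. Replicate 1 had a peak at 8 of the 11 and 4 of the 19, and replicate 2 at 10 and 9.

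Transfer RNAs carry amino acids to the ribosome and read codons through their anticodon. Their genes are short and are transcribed by RNA polymerase III from promoter elements inside the gene, bound by the factor TFIIIC, which recruits TFIIIB and the polymerase. Active tRNA genes are commonly free of a nucleosome over the gene itself, with acetylated nucleosomes on the flanks, as described in yeast and human cells. In the fly genome many tRNA genes occur in identical copies and in clusters. A symbol such as tRNA:Ala-AGC-2-9 gives the amino acid, the anticodon, the number of the mature sequence (isodecoder) and the number of the copy. The 290 members formed 84 isodecoders with 45 anticodons, and their median length was 73 bp, with a range of 71 to 186 bp. The 7 members above 100 bp were genes for tyrosine and leucine tRNAs.

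A tRNA gene is called marked when a peak lay within 500 bp of it in both replicates. Of the 290 members, 36 (12.4%) were marked, beside 11.3% of all positions of the arms. Positions were taken as every possible placement of a window of 73 bp, 133641546 in all, judged by the same rule. Weighted by the number of members on each arm, the share of positions was 12.3%. The share of marked tRNA genes was thus near the background of the arms. Replicate 1 placed a peak near 42 members (14.5%, against 13.5% of positions), and replicate 2 near 66 (22.8%, against 23.5%). Both counts include the 36. Peaks of replicate 1 alone lay near 6 members, peaks of replicate 2 alone near 30, and 218 members had none in either list. These counts describe 2 libraries of 1 group. No test was made, because genes that share peaks and sequences are not replicates.

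The isolated and the other members stood on different sides of their own backgrounds. Of the 186 isolated genes, 22 (11.8%) were marked, against 8.47% of isolated positions. Of the 104 genes near a protein-coding gene end, 14 (13.5%) were marked, against 19.8% of positions equally near an end. The order held in each list taken alone. Replicate 1 had peaks near 25 isolated genes (13.4%, against 10.4% of isolated positions) and near 17 of the others (16.3%, against 23.1%). Replicate 2 had them near 40 isolated genes (21.5%, against 18.5%) and near 26 of the others (25.0%, against 38.3%). With a window of 250 bp, 10 isolated genes (5.38%) were marked, against 5.52% of isolated positions, so that the small excess was lost. The excess of 3.36 percentage points at 500 bp shrank to 0.72 when the summit had to lie in the window, to 1.28 with peaks of a -log10 q of 5 or more, and to 0.44 with equal numbers of top peaks per list. Shares of isolated and near positions, here and below, were not weighted by arm. The part of the arms in these differences was not tested.

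Among isolated genes, 94 lay in the interior of a protein-coding gene, and 15 of them (16.0%) were marked, against 9.98% of such positions. The 92 isolated genes outside protein-coding genes had 7 marked members (7.61%, against 5.61% of such positions). Near a protein-coding gene end, 8 of 40 genes inside a protein-coding gene were marked (20%, against 20.4%), and 6 of 64 genes outside (9.38%, against 18.2%). By this rule the lowest share relative to its positions was that of tRNA genes beside, but not inside, a protein-coding gene. It rests on 6 genes and did not hold in replicate 2. There, genes near an end stood at 27.5% inside (against 40.3% of positions) and 23.4% outside (against 33.4%). In replicate 1 they stood at 20% inside (against 23.8%) and 14.1% outside (against 21.2%).

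**Figure D1:**
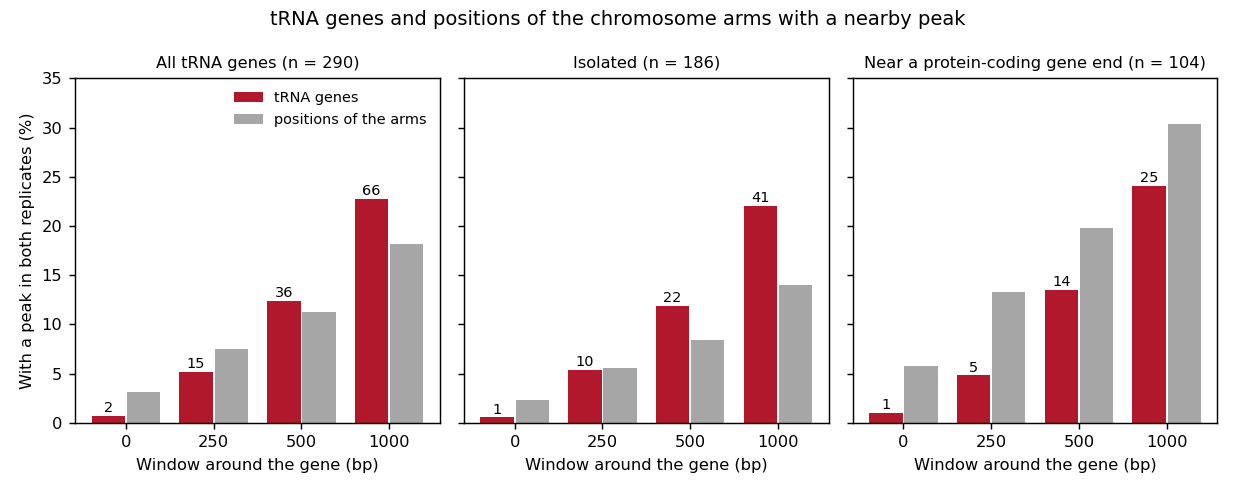
The share of tRNA genes (red, left) and of arm positions of the same class (grey, right) with a peak in both replicates, by window around the gene in bp, for all, isolated and other tRNA genes; the number on each red bar is its count of genes. With no window the red bars stand at 2, 1 and 1 genes, below the grey bars in all panels, while at 500 bp the isolated genes stand at 11.8% against 8.47%.

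Peaks rarely lay over the tRNA genes themselves. A peak covered some part of the gene in both replicates for 2 of 290 members (0.690%), against 3.15% of the placements of a 73 bp window, a share that corresponds to 9.13 genes. In replicate 1 the count was 2 (0.690%, against 4.56% of positions), and in replicate 2 it was 5 (1.72%, against 7.47%). Isolated genes were covered in 1 case in both replicates (2.27% of isolated positions), 1 in replicate 1 (3.35%) and 3 in replicate 2 (5.66%). Genes near a protein-coding gene end were covered in 1 case in both (5.75% of such positions), 1 in replicate 1 (8.16%) and 2 in replicate 2 (12.9%). The genes covered in both were tRNA:Tyr-GTA-1-9 and tRNA:Ala-AGC-1-1. Those covered in replicate 2 and not in replicate 1 were tRNA:Lys-CTT-1-1, tRNA:Thr-AGT-1-7 and the selenocysteine gene tRNA:SeC-TCA-1-1. A peak lay over 15 of 269 snoRNA genes (5.58%) and over 15 of 260 microRNA genes (5.77%) in both replicates. Those genes are longer, with medians of 134 and 92 bp. Among other genes that RNA polymerase III transcribes, a peak lay over 0 of 96 genes for 5S rRNA and 0 of 10 genes for U6, U6atac, 7SK, 7SL, RNase P and RNase MRP RNA. The 5S rRNA genes are a tandem array and the others are few, so these counts rest on few separate loci.

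Coverage was higher farther from the tRNA gene. Distances are given in bins, and a base at the shared edge of a pair of bins belongs to the inner one. In replicate 1, peaks covered 1.18% of the bases of the genes and 0.652% of the bases 1 to 100 bp away. Coverage was 1.71% at 100 to 200 bp, 3.33% at 200 to 300 bp, 4.23% at 300 to 400 bp and 5.17% at 400 to 500 bp. Over all bases of the arms it was 3.78%, so that the genes and their nearest flanks lay below the arms and the flanks beyond 300 bp above them. In replicate 2, coverage was 1.63% in the genes, 1.36% at 1 to 100 bp, 2.21% at 100 to 200 bp, 3.87% at 200 to 300 bp, 5.34% at 300 to 400 bp and 7.34% at 400 to 500 bp, against 6.05% over the arms. The level of the arms was thus passed beyond 300 bp in replicate 1 and beyond 400 bp in replicate 2. From 500 to 3000 bp it ran between 5.32% and 7.28% in replicate 1 and between 8.69% and 10.7% in replicate 2. The inner bins rest on few genes: bases covered in both lists belonged to 2 genes within the gene itself, 5 at 1 to 100 bp, 9 at 100 to 200 bp, 17 at 200 to 300 bp and 26 at 400 to 500 bp.

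The same profile around snoRNA and microRNA genes showed no such trough below the level of the arms. In replicate 1, coverage was 7.95% in snoRNA genes, 6.73% at 1 to 100 bp and 5.72% at 400 to 500 bp, and in microRNA genes it was 6.25%, 6.00% and 5.93%. In replicate 2, it was 7.22%, 6.82% and 9.23% for snoRNA genes, and 10.4%, 9.10% and 7.41% for microRNA genes. Many snoRNA genes lie inside protein-coding host genes (213 of 269), as do 166 of 260 microRNA genes and 134 of 290 tRNA genes.

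**Figure D2:**
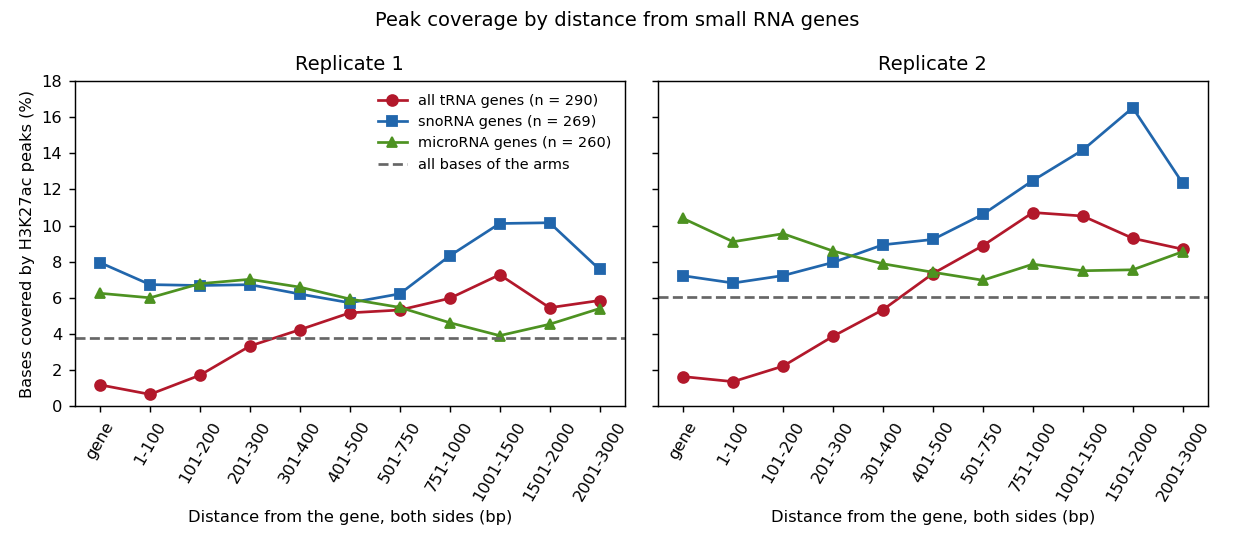
Percent of bases covered by H3K27ac peaks (vertical axis) in the gene and in bins of distance from it in bp, both sides pooled, for 290 tRNA, 269 snoRNA and 260 microRNA genes in each replicate; the dashed line is the coverage of all bases of the arms. The tRNA line starts at 1.18% and 1.63% in the gene and reaches 5.17% and 7.34% at 400 to 500 bp, whereas the other lines start above the dashed line.

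Coverage was also split by the copy number of the isodecoder, with few genes behind the inner values. In the 38 genes whose isodecoder has 1 copy, peaks covered 2.48% of gene bases in replicate 1 and 5.44% in replicate 2, which rests on 1 and 2 genes. In the 252 genes whose isodecoder has 2 or more copies, coverage was 0.975% and 1.05%, from 1 and 3 genes. At 1 to 100 bp, the 1-copy genes stood at 2.07% and 4.42% and the others at 0.438% and 0.893%. At 400 to 500 bp, the values were 7.78% and 8.89% for 1-copy genes and 4.77% and 7.11% for the others, so that both classes had more coverage there than within 100 bp. In the 105 genes with no other tRNA gene within 1 kb, coverage was 3.20% and 4.34% in the gene, 1.61% and 3.16% at 1 to 100 bp, and 6.08% and 6.57% at 400 to 500 bp. A read that lies wholly within identical copies cannot be placed uniquely, and the sources used here do not give the treatment of such reads. The peaks' names carry the tag RMq10, which those sources do not explain. By replicate, the genes covered were 1 and 2 of 38 with 1 copy. With 2 to 5 copies they were 0 of 108 in each replicate, and with 6 or more copies 1 and 3 of 144. These counts are too small to order the classes. The part of copy number in the trough was not tested. By the count of marked genes, 7 of 38 genes with 1 copy (18.4%) and 29 of 252 with more (11.5%) had a peak within 500 bp in both lists. Of the 252, these were 9 of 108 with 2 to 5 copies (8.33%) and 20 of 144 with 6 or more (13.9%).

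For the 36 marked genes, the nearest edge of a peak lay at a median of 264 bp from the gene in replicate 1 and 252 bp in replicate 2, and within 100 bp for 5 and 6 genes. Since edges beyond 500 bp do not mark a gene, these medians are bounded by the rule. Summits, the highest point of a peak, lay at a median of 430 and 442 bp from the gene, between 0 and 1165 bp in replicate 1 and between 88 and 996 bp in replicate 2. The gene table carries no strand, so that upstream and downstream flanks could not be separated.

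Peaks beside tRNA genes were of ordinary height and width. The fold enrichment deposited by the authors is the pileup at the summit over the background estimated by the peak caller. In replicate 1, the 35 peaks at marked genes had medians of 2.63 in fold enrichment, 285 bp in width and 53 fragments in pileup, against 2.43, 278 bp and 52 fragments for all 14425 peaks of the arms. In replicate 2, 34 peaks had 2.33, 286 bp and 85.5 fragments, against 2.07, 253 bp and 73 fragments for 26358 peaks. The peaks at marked genes are those found in both lists, and the choice of reproduced peaks favours higher ones. Over every peak within 500 bp of any tRNA gene, the median fold enrichment was 2.62 for 39 peaks in replicate 1 and 2.14 for 58 peaks in replicate 2. In the top 10 percent of their list were 1 of the 39 and 6 of the 58. Of all peaks of the arms, these were 1428 of 14425 and 2604 of 26358.

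**Figure D3:**
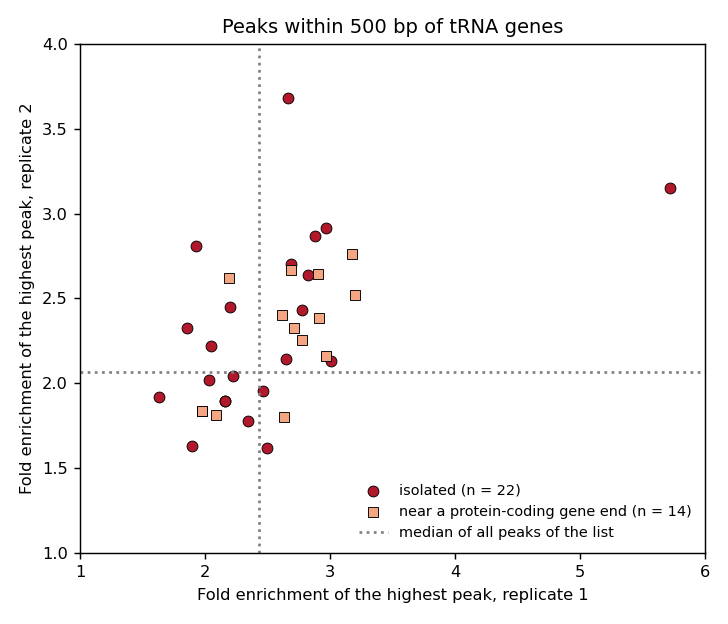
Fold enrichment of the highest peak within 500 bp of each of the 36 marked tRNA genes in replicate 1 (horizontal) and replicate 2 (vertical), with isolated genes as circles and the others as squares; dotted lines are the medians of all peaks, 2.43 and 2.07. A point for tRNA:Trp-CCA-2-1 stands at 5.72 and 3.15, and most others lie between 1.6 and 3.2 in replicate 1.

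The highest isolated gene was tRNA:Trp-CCA-2-1, for tryptophan, on 2L at 4418977 to 4419048 inside CG15431 and 7153 bp from the nearest gene end. Its peaks reached 5.72-fold in replicate 1 (108 fragments, a width of 1017 bp) and 3.15-fold in replicate 2 (103 fragments, 346 bp). They began 109 and 367 bp from the gene. It is the member that stands apart in replicate 1, at percentile 99.8 of its list, and it stood at percentile 96.7 in replicate 2.

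Of the isolated leucine genes, 3 were marked. tRNA:Leu-CAA-2-3, on 3R at 23601333 to 23601455, had 2.97-fold in replicate 1 and 2.92-fold in replicate 2. tRNA:Leu-TAA-1-1, on 3R at 20604749 to 20604832 inside bon, a gene for a nuclear cofactor of metamorphosis, had 2.66-fold and 3.68-fold, the highest value of a marked tRNA gene in replicate 2. tRNA:Leu-CAG-1-2, on 3L at 8060214 to 8060296, had 2.04-fold and 2.22-fold. The first and the second of these lay above the list medians of 2.43 and 2.07 in both replicates, and the third lay below it in replicate 1 and above it in replicate 2.

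Alanine genes were marked in 3 of 17 cases, all isolated and all with the anticodon AGC. tRNA:Ala-AGC-2-9, on 3R at 17658381 to 17658453, had 2.88-fold and 2.87-fold. tRNA:Ala-AGC-2-1, on 3L at 8028546 to 8028618 and 25529 bp inside nmo, a kinase gene that acts in wing vein formation, had 3.01-fold and 2.13-fold. tRNA:Ala-AGC-1-1, on 3R at 17657145 to 17657217, had 2.46-fold and 1.96-fold from peaks of 394 and 336 bp that lay over the gene, with summits 155 and 88 bp away. It was the only isolated member covered in both lists.

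Among isolated genes on 2R, tRNA:Glu-TTC-1-3, at 19564873 to 19564944 inside sm, an RNA-binding protein gene, had 2.82-fold and 2.64-fold. tRNA:Ile-AAT-1-3, at 13430282 to 13430355 inside ATP8A, a phospholipid flippase gene, had 2.77-fold and 2.43-fold. tRNA:His-GTG-1-5, at 19506339 to 19506410, had 2.68-fold and 2.70-fold from peaks that began 64 and 6 bp from the gene. These 3 lay above the list medians in both replicates. tRNA:Glu-TTC-1-1 and tRNA:Glu-CTC-1-1, at 16219374 and 16219638 inside mrj, a chaperone gene, shared 1 peak of 2.16-fold and 1.90-fold. On 2L, tRNA:Gly-GCC-1-7, at 14530546 to 14530616, had 2.19-fold and 2.45-fold.

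Of the genes near a protein-coding gene end, the highest by rank was tRNA:Val-CAC-2-5, on 3R at 19672277 to 19672349 and 827 bp from the end of Naam, a nicotinamidase gene, with 3.17-fold and 2.76-fold. tRNA:His-GTG-1-3, on 2R at 12334995 to 12335066, had 3.20-fold and 2.52-fold, and lay 250 bp from CG8490. The same values were found at the gene ends of Naam and CG8490. tRNA:Tyr-GTA-1-9, on 2L at 7711476 to 7711661 and 596 bp from the end of Ntl, had 2.90-fold and 2.65-fold, which were also the values of Ntl. Its peaks of 783 and 576 bp lay over the tRNA gene, the longest of all members, and the summit was within the gene in replicate 1 and 357 bp away in replicate 2.

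Other members of this class lay close together in height. tRNA:Asp-GTC-1-10, on 3L at 13249547 to 13249618 inside caps, had 2.68-fold and 2.67-fold, equal to the values of CG32119. The initiator gene tRNA:iMet-CAT-1-4, on 3L at 14673942 to 14674013, had 2.78-fold and 2.25-fold. tRNA:Ser-AGA-2-4, on 2L at 3173003 to 3173084, had 2.71-fold and 2.33-fold, although CG31698, 121 bp away, had no peak at either end. All of these lay above both list medians. tRNA:Arg-TCT-1-1, on 2R at 11652367 to 11652439, had 2.96-fold and 2.16-fold and lay 28 bp from CG34228. tRNA:Leu-CAG-1-7, on 3L at 8068208 to 8068290, had 2.19-fold and 2.62-fold.

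The 11 marked genes that ranked below the 15 isolated and 10 other genes chosen for naming had a fold enrichment from 1.63 to 2.63 in replicate 1 (median 1.97) and from 1.62 to 2.81 in replicate 2 (median 1.84). Over all 36, replicate 1 gave the higher value at 28. For 35 of the 36 the peaks of the replicates overlapped each other, and the exception was tRNA:Arg-TCG-2-4. The 6 members with a peak in replicate 1 alone had 2.16-fold to 2.77-fold from 4 peaks, and the 30 with a peak in replicate 2 alone had 1.58-fold to 2.70-fold from 26 peaks.

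By amino acid, 17 of 22 classes had a marked gene, with initiator and selenocysteine tRNAs counted as classes of their own. Arginine genes were marked in 5 of 26 cases, glutamate genes in 4 of 19, leucine genes in 4 of 22 and aspartate genes in 3 of 14. Histidine genes had 2 of 5 and tryptophan genes 2 of 8. No gene was marked for cysteine (0 of 7), glutamine (0 of 12), elongator methionine (0 of 6), phenylalanine (0 of 8) or selenocysteine (0 of 1). For glutamine, 4 of 12 genes had a peak in replicate 2, while methionine and phenylalanine genes had none in either list. The classes are small, and genes of a class share sequences and often a locus.

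**Figure D4:**
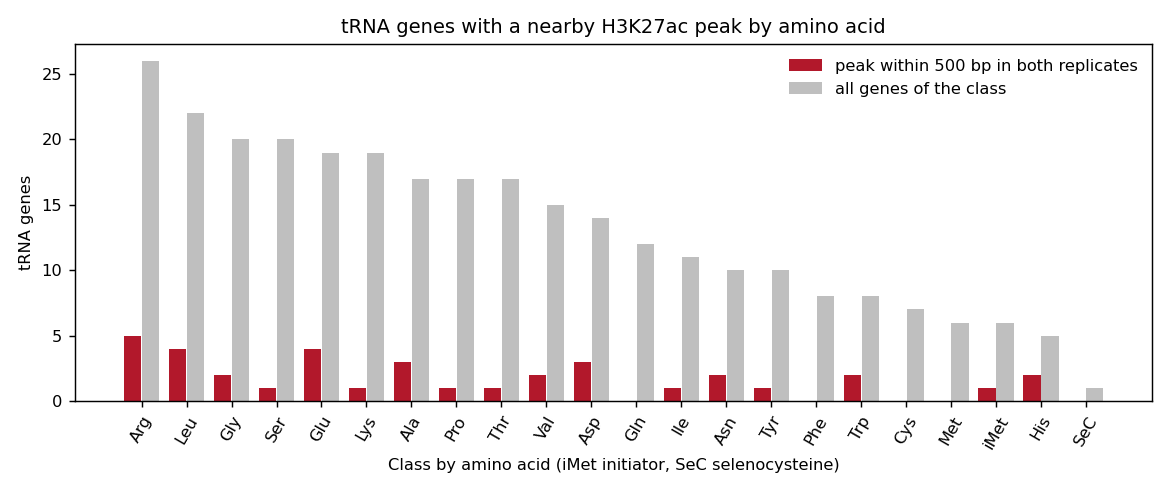
Number of tRNA genes with a peak within 500 bp in both replicates (red, left) and of all genes (grey, right) for each of 22 classes by amino acid. Arginine has 5 of 26, lysine 1 of 19 and serine 1 of 20, and 5 classes have 0.

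By anticodon, 23 of 45 had a marked gene. Of the 35 anticodons with 4 or more genes, 0 had all of them marked and 14 had none. Those 14 were Cys-GCA, Gln-CTG, Gln-TTG, Gly-TCC, Leu-AAG, Lys-TTT, Met-CAT, Phe-GAA, Pro-AGG, Pro-CGG, Ser-CGA, Ser-GCT, Thr-TGT and Val-AAC, with 83 genes together. For 10 of them, with 56 genes, neither list held a peak within 500 bp of any gene. Lysine genes had 1 of 13 marked with CTT and 0 of 6 with TTT, and valine genes had 2 of 7 with CAC and 0 of 6 with AAC, counts too small to set anticodons apart. SeC-TCA was the only anticodon with 1 gene. That gene, tRNA:SeC-TCA-1-1 on 2R at 11357564 to 11357650, lies 27 bp from iotaTry. It had 2 peaks within 500 bp in replicate 2 and none in replicate 1. The higher peak, of 2.70-fold, ended at 11357117, outside the gene, and the other peak lay over the gene.

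Chained where neighbours lay within 20 kb, the members formed 120 groups, of which 59 were lone genes and 12 held 5 or more genes. In the groups of 5 or more, 14 of 106 genes (13.2%) were marked, against 22 of 184 genes (12.0%) in smaller groups. With a chain of 1 kb, 1 of 31 genes (3.23%) was marked in the 5 groups of 5 or more, against 35 of 259 (13.5%) elsewhere. By group, 1 of these 5 held a marked gene, too few groups to set dense clusters apart. Counted as loci of neighbours within 1 kb, 31 of 174 loci (17.8%) were marked, and of the 105 lone genes, 18 (17.1%). A locus of several genes is a wider target than a window of 73 bp, and no share of positions was formed for loci.

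The largest group held 19 genes for arginine, asparagine, isoleucine and lysine on 2R, over 48.3 kb from 6142165 to 6190445, in and around EcR, the ecdysone receptor gene, and Ptr. Peaks of both lists covered 8.63% of the span, against 2.49% of the arms, and 4 of the 19 genes were marked. tRNA:Arg-ACG-1-1 had 2.65-fold and 2.14-fold and tRNA:Lys-CTT-1-1 had 2.22-fold and 2.04-fold, and they had a peak of each list in common, inside EcR. tRNA:Arg-ACG-1-3 had 2.91-fold and 2.39-fold, 520 bp from the end of EcR and equal to the values at that end. tRNA:Asn-GTT-1-8 had 2.03-fold and 2.02-fold, inside Ptr. Of the 19 genes, 14 had no peak within 500 bp in either list. The share of the span's positions within 500 bp of a peak was not computed, so that these counts have no matching background.

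The next group held 18 genes for alanine, proline, threonine and valine on 3R, over 50.5 kb from 17617761 to 17668259, partly inside CG14322. Here 4 genes were marked, 7 had a peak in replicate 1 and 4 had one in replicate 2. tRNA:Val-CAC-1-1, 448 bp from CG14324, had 2.62-fold and 2.40-fold, and tRNA:Pro-TGG-1-1 had 2.08-fold and 1.81-fold. The other marked genes were the alanine genes tRNA:Ala-AGC-1-1 and tRNA:Ala-AGC-2-9. A peak of 2.16-fold in replicate 1 lay near tRNA:Pro-TGG-1-4, tRNA:Ala-AGC-2-7 and tRNA:Ala-AGC-2-8, and replicate 2 had none there.

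Other large groups had fewer marked genes. A group of 9 glutamate genes on 3L, in and around Ptp61F and ru, had 0 marked and 1 with a peak in replicate 2. A group of 9 arginine and serine genes on X had no peak within 500 bp of its span in either list, and neither had a group of 8 glutamate, isoleucine and initiator methionine genes on 2R. A group of 8 isoleucine and leucine genes on 2R had 1 marked, as had 6 glycine and tryptophan genes on 2R. Of 6 leucine genes on 3L, 2 were marked. The 6 glutamine and glycine genes on 2L and the 6 cysteine and lysine genes on 3L had 0 marked, with 3 and 1 near a peak of replicate 2. A group of 6 arginine and asparagine genes on 3R, equal in size to the last of these and not in the plot of groups, had no peak in either list.

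**Figure D5:**
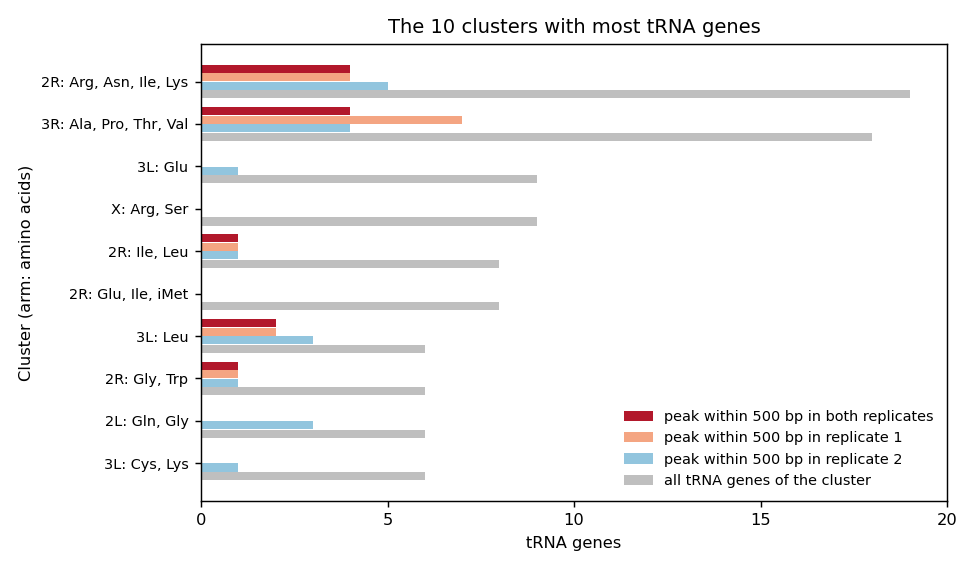
Number of tRNA genes with a peak within 500 bp in both replicates, in replicate 1 and in replicate 2, and of all genes, for the 10 groups with most tRNA genes, chained within 20 kb and named by arm and amino acids. The largest groups, with 19 and 18 genes, have 4 marked genes each.

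None of the 24 members on X had a peak within 500 bp in either list. The X of these male wings had few peaks in general: 3.61% of its positions met the rule in both replicates, 6.96% in replicate 1 and 7.40% in replicate 2. At that background, 0 of 24 is not set apart. Over the arms 2L, 2R, 3L and 3R, 36 of 266 members (13.5%) were marked, against 13.0% of positions, and by arm the shares were 12.2%, 14.3%, 12.5% and 13.9%, against 12.6%, 13.8%, 13.2% and 12.5% of positions. Each autosomal arm thus stood within 2 percentage points of its own background.

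Beside the tRNA genes, other genes transcribed by RNA polymerase III were marked in no case. The 96 genes for 5S rRNA, a tandem array of repeats, had no peak within 500 bp in either list. Of 10 genes for U6, U6atac, 7SK, 7SL, RNase P and RNase MRP RNA, snRNA:7SKa had a peak in replicate 1 and snRNA:U6atac one in replicate 2, and 0 had one in both. The share of all arm positions was 11.3%. The array is not a set of separate loci, and the treatment of reads with several placements is not given. With only 10 other genes, these counts do not set the classes apart from the arms. The 5 tRNA pseudogenes of the arms had none. By the same rule, 40 of 269 snoRNA genes (14.9%), 41 of 260 microRNA genes (15.8%) and 1 of 26 snRNA genes of RNA polymerase II (3.85%) were marked. Among isolated genes the shares were 11.8% for tRNA (22 of 186), 8.05% for snoRNA (12 of 149) and 12.2% for microRNA (20 of 164).

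The protein-coding genes that make and use tRNAs were counted by a peak within 500 bp of either gene end in both replicates, a wider target than 1 short gene. Over all 13922 protein-coding genes, 5474 (39.3%) met this rule, and the medians of their fold enrichment were 2.73 and 2.38 by replicate. Subunits and factors of RNA polymerase III met it in 14 of 25 cases (56.0%, medians 2.82 and 2.55). Maf1, the repressor of the polymerase, had 5.40-fold and 4.50-fold, Polr2H had 4.396-fold and 2.95-fold, and Polr2E had 3.47-fold and 3.01-fold; both are subunits that the nuclear polymerases share. Brf, a subunit of TFIIIB, and Polr2F had a peak in replicate 2 and not in replicate 1, and Polr1C had none. Among genes whose symbol begins with Polr3, Polr3C, Polr3E, Polr3I and Polr3K had a peak in replicate 2 alone. Polr3A and Polr3G had none in either list, nor had Tbp, and the other Polr3 genes met the rule. The share of the list is thus not that of the Polr3 genes alone.

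Aminoacyl-tRNA synthetase genes, whose products attach the amino acids, met the rule in 23 of 35 cases (65.7%, medians 2.70 and 2.28). Symbols ending in -m are mitochondrial enzymes, and all of these but MetRS-m and ValRS-m met the rule. Among the rest, AlaRS, AsnRS, AspRS, GluProRS, GlyRS, HisRS, IleRS, LysRS, MetRS and beta-PheRS did not. The share is thus not that of enzymes for nuclear tRNAs alone. LeuRS had 4.84-fold and 2.75-fold, ThrRS had 3.03-fold and 2.51-fold, and the mitochondrial enzymes' genes ArgRS-m and LeuRS-m had 3.63-fold and 2.88-fold, and 4.25-fold and 2.66-fold. AlaRS, AsnRS and AspRS had a peak in replicate 2 and not in replicate 1. Genes of tRNA processing met it in 9 of 16 cases (56.25%, medians 2.43 and 2.68). Among them were the tRNA ligase gene RtcB (3.95-fold and 3.78-fold), the RNase P and MRP subunit genes Pop5 (3.59-fold and 2.82-fold) and Rpp20 (2.73-fold and 3.13-fold), and Elp3, an acetyltransferase subunit gene of Elongator (3.19-fold and 2.75-fold). La, whose product binds new RNA polymerase III transcripts, and the RNA methyltransferase genes Mt2 and Nsun2 had a peak in replicate 2 and not in replicate 1. Peaks at these gene ends can also reach neighbouring genes.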

How the data were processed

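The labels' protocols describe CUT&RUN with an antibody against H3K27ac on nuclei of male pupal wings crosslinked for 1 min. Per the submitters' processing notes, Bowtie2, MACS2 and dm6 were used. The sources used here give no versions or settings, no treatment of duplicates or of reads with several placements, and no control library. The deposited narrowPeak lists give start, end and summit offset, the fold (ratio) over background, -log10 p and -log10 q, and a whole-number score of the -log10 q. Fold and -log10 values are the authors' and describe peaks within a list. The deposited score was not used further.

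Positions were made 1-based. Depth was recovered by solving fold and -log10 p of each peak for a pileup in whole fragments and the mean of a Poisson distribution, within 0.001 units of log10 p, for 14460 of 14461 and 26419 of 26420 peaks; the most frequent background is given. Intervals or limits from counting were not formed, since peak lists hold no counts outside peaks.

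Gene positions came from RefSeq, Release 6. tRNA genes were marked when a peak lay within 500 bp in both replicates. Position shares are exact over all placements of a 73 bp window, up to the last gene or peak of each arm. These placements took the place of the fixed tiles first planned, and isolated protein-coding genes were not analysed as a further comparison. Percentiles are ranks of fold within a list. No tRNA sequences were used here. The named genes were the 15 isolated and 10 other marked genes with the highest lower percentile of the replicates, the 10 groups with most genes, single-gene anticodons, anticodons of 4 or more genes with all or none marked, and, in other lists, up to 4 marked and 3 unmarked genes, of which 1 is not reported here. Further unmarked genes of the lists were named outside this rule. Members, lists and tests were chosen with earlier results of these data known. Python 3.11.15, pandas 2.3.3 and scipy 1.17.1 were used, and marking was tested on simulated data. The replicates form 1 group, so that no group comparison was made.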

Additional observations from a re-analysis of the deposited data

Results flagged for a closer look

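Peaks on the mitochondrial genome, outside the arms used here, numbered 3 in replicate 1 and 13 in replicate 2. They are given because they lie outside the genes described above, and whether they reflect H3K27ac or background was not tested. Their fold enrichment was 1.85 to 2.52 in replicate 1 and 1.31 to 2.37 in replicate 2. In both lists they lay over 3 of the 22 mitochondrial tRNA genes, trnC, trnY and trnV. No control library was analysed here to set them against.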

How the results depend on the processing

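The counts of marked tRNA genes followed the rule. For all, isolated and other members they were 15, 10 and 5 with a window of 250 bp, 66, 41 and 25 with 1000 bp, 2, 1 and 1 with a peak over the gene, 22, 13 and 9 with summits, 22, 13 and 9 at a -log10 q of 5 or more, 14, 7 and 7 with 7230 top peaks per list, and 72, 43 and 29 with a peak in either replicate. Leaving out a replicate gave 42 to 66, 25 to 40 and 17 to 26. With isolation at 500 bp, 6 of 70 other members were marked. In 1-copy isodecoders, a setting chosen after seeing the data, 7 were marked. The difference from positions, also added after seeing the data, was 1.11 percentage points for all members and turned to -2.30 (250 bp), -2.46 (over the gene), -0.75 (summits), -0.17 (-log10 q of at least 5) and -0.90 (either replicate), and was 4.62 at 1000 bp. Leaving out a replicate gave -0.73 to 0.94.

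For isolated members it was 3.36 and became -0.15 (250 bp), -1.74 (over the gene), 8.02 (1000 bp), 0.72 (summits), 1.28 (-log10 q of at least 5), 0.44 (top peaks), 2.73 (either replicate), 3.18 (overlapping peaks), 4.16 and 4.07 (isolation at 500 and 2000 bp), 4.57 (isolation from any other gene), and 3.00 to 3.09 without a replicate. For members near a gene end it was -6.30, stayed negative in all 13 alternatives run, and was -13.7 (either replicate), -12.4 (isolation at 500 bp) and -13.3 to -6.71 without a replicate. Coverage within 100 bp minus that at 400 to 500 bp was -3.27 percentage points, negative in all 7 alternatives run, among them -1.38 (top peaks), -3.54 (1-copy isodecoders), -2.91 (no other tRNA gene within 1 kb) and -5.91 to -4.37 without a replicate. Wider windows and deeper lists mark more genes by construction; the cause of the other changes was not tested. No paired analysis was possible because there is 1 group.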
